A study of Mus musculus with 4 samples.

Results

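The genes described here are 32 genes of apoptosis, the ordered form of cell death: the BCL2 family, the caspases, the inhibitors of apoptosis (IAP proteins), the death receptors with their adaptors, and p53 (Trp53) with its regulator Mdm2. They were chosen by name, from a list of symbols, with earlier results of these data known. Each matched a protein-coding gene in RefSeq (32 of 21631 on the autosomes and X). A glucocorticoid receptor (GR) peak was counted for a gene when its centre lay in the gene span or within 25 kb of it. By this rule 12 of the 32 had a peak at 1 h or 12 h of corticosterone, through 20 different sites, and 20 had none.

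The deposited data are GR ChIP-seq peak lists (chromatin pulled down with a mix of GR antibodies, then sequenced) from 33AP1C9 cells. This line comes from C127 mouse mammary epithelial cells, and it carries an integrated reporter driven by a hormone-responsive viral promoter together with a fluorescent coat protein that marks the reporter's RNA, in all samples. Cells were kept in hormone-stripped serum and were then left untreated or given 600 nM corticosterone, the main glucocorticoid of rodents, for 1 h or 12 h. There was 1 library per condition, so no difference between times has a replicate check and no test across conditions was possible. The libraries held 79203826 (untreated), 90556119 (1 h) and 97749688 (12 h) tags, and 1, 5638 and 2883 peaks were listed. Peak lists hold no expression values, so the mammary identity of the cells was not checked against markers. In such bulk material, fewer cells with a bound receptor and less receptor per cell cannot be told apart.

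Apoptosis through the mitochondria is set by the balance of BCL2 family proteins. Anti-apoptotic members such as BCL2, BCL-XL (Bcl2l1) and MCL1 hold the pore formers BAX and BAK in check, and the BH3-only proteins release them. Cytochrome c then assembles with APAF1 and caspase 9, while death receptors start a parallel route through FADD and caspase 8. Glucocorticoids are known to kill lymphoid cells, where induction of the BH3-only gene Bcl2l11 takes part, and to favour survival of mammary epithelium.

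At 1 h 11 of the 32 genes had a GR peak within 25 kb (34.4%), against 17.1% of all protein-coding genes. At 12 h 10 had a peak (31.2%), against 9.33%. Long genes had peaks more often: with all genes split into 5 equal groups by span length, the share with a 1 h peak went from 7.74% in the shortest group to 31.9% in the longest. The shares of the group that each member belongs to would give 5.13 of the 32 at 1 h and 2.71 at 12 h. The median span was 17.7 kb, against 17.3 kb for all genes, so the apoptosis genes were not longer as a group. A peak was listed at both times for 9 genes, at 1 h alone for Bcl2 and Casp8, and at 12 h alone for Bmf. The windows around the 32 genes held 7.38 peaks per Mb at 1 h and 6.15 at 12 h, against 2.49 and 1.23 in the windows of all protein-coding genes. Without Bcl2l1, which held the most sites, the densities were 6.05 and 4.32. With 1 library behind each list, the shares are given without a test. The genes were chosen with earlier results of these data known, so the shares cannot be read as independent of that choice.

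The count depended on the distance allowed. Inside the gene span 3 genes had a 1 h peak (9.38%), which was near the 7.63% of all genes, and 4 had a 12 h peak (12.5%, against 4.06%). Within 10 kb there were 7 at 1 h (21.9%, against 11.8%) and 8 at 12 h (25%, against 6.24%). Within 100 kb there were 19 (59.4%, against 37.9%) and 13 (40.6%, against 22.6%). With peaks at 2 or more times each minimum of the peak caller, 8 genes remained at 1 h (25%, against 7.76%), and 4 at 12 h (12.5%, against 3.73%), which were Bcl2l1, Bcl2l11, Cflar and Mdm2. Counting a peak for its nearest gene alone gave 8 genes at 1 h (25%, against 11.7%) and 8 at 12 h (25%, against 6.49%).

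**Figure D1:**
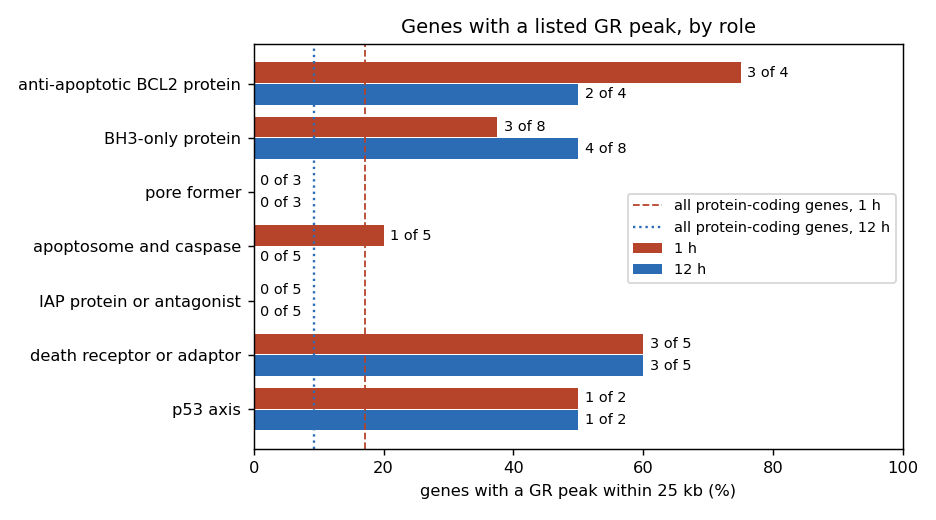
Share of the genes of each role with a GR peak within 25 kb (x axis, percent) at 1 h (red) and 12 h (blue), with the counts beside the bars. The dashed and dotted lines mark the shares among all protein-coding genes, 17.1% and 9.33%. The pore formers and the IAP group had no peak at either time.

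By role, the genes fell into small groups, to be read beside the 17.1% of all protein-coding genes with a 1 h peak and 9.33% with a 12 h peak. Of the 4 anti-apoptotic BCL2 genes, 3 had a 1 h peak and 2 a 12 h peak. Of the 8 BH3-only genes it was 3 and 4, and of the 5 genes of the death receptor group 3 at both times. The apoptosome and caspase group had 1 of 5 at 1 h and 0 at 12 h, and Mdm2 was the 1 of 2 genes of the p53 axis. None of the 3 pore formers (Bax, Bak1, Bok) and none of the 5 IAP genes or their antagonist (Birc2, Birc3, Birc5, Xiap, Diablo) had a peak at either time. The groups are too small for these shares to be ranked. At the shares of all genes a group of 3 or 5 can well hold no peak, so these absences are not a result about the groups.

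No listed peak overlapped a promoter of these genes. The RefSeq promoter table (GRCm38.p6, the assembly of mm10; 250 bases before to 50 after a start site) held 39 promoters for 28 of the 32 genes, and none met a 1 h or 12 h peak. Among all 32851 promoters 0.304% met a 1 h peak and 0.158% a 12 h peak, so promoter peaks were rare in these lists for any gene. The receptor palindrome (an inverted repeat with 3 free bases between its arms and 1 in each arm), searched on both strands, was in 0 of the 39, against 0.475% of all promoters. The shorter hexamer AGAACA, searched on both strands, was in 4 of them (Bok, Fadd and a pair at Xiap), against 19% of all. A palindrome that holds the hexamer would count under both searches.

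The 250 bases before a start site are shown for Bcl2l1, whose gene body held the most GR tags, and for Fadd, the only gene with a listed peak whose promoter had the hexamer. The first Bcl2l1 window (chr2:152828490-152828739, minus strand) precedes the start site nearest to the GR sites, and the second (chr2:152831729-152831978, minus strand) precedes the most upstream start in the promoter table, which lies inside the gene span, short of its upstream end at 152833803. The Fadd window is chr7:144582442-144582691 on the minus strand. Capitals mark the hexamer, which in Fadd reads as its reverse complement and begins 167 bases before the start. Neither Bcl2l1 window had a match.
Bcl2l1, start nearest to the sites: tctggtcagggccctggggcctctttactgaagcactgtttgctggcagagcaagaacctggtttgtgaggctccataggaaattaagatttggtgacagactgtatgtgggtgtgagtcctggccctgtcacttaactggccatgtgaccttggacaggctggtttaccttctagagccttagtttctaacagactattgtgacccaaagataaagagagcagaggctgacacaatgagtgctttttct
Bcl2l1, most upstream start in the table: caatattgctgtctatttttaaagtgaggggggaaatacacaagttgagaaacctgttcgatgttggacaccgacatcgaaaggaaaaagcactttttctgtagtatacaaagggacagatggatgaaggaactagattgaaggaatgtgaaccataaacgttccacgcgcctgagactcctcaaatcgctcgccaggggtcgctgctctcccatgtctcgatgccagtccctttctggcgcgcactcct
Fadd: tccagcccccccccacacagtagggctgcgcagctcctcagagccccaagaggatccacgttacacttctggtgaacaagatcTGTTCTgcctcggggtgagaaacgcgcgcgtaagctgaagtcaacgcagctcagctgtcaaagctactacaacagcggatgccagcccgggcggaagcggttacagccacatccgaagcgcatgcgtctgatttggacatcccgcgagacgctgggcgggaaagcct
The Bcl2l1 windows differed in composition, with 48.4% G and C and 0 CpG dinucleotides before the start nearest to the sites, and 47.6% and 12 before the most upstream start. The Fadd window had 60.4% and 19. A match here is a run of letters and not a measured site.

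Values below are normalised tags, the deposited count of tags in the peak window scaled to a library of 10000000 tags. The untreated library is given in raw tags in the same window. Both treated lists were called against it, with a fold of at least 6 over it, a fold of at least 6 over the surrounding 10 kb and a score of at least 75. Being above the untreated library was thus a condition of being listed. The untreated list held 1 peak in all, and 0 member sites were in it, which says little about binding before hormone. The tags that a peak would have needed to be listed, given below for some sites, are approximate. They follow from the score and the fold over the untreated library, and the local fold had to be met as well. At the member sites the untreated library held 5 to 27 tags. Its mean was 14.6 at the 18 sites of 1 h and 15.2 at the 15 sites of 12 h, against 11.4 and 12.3 over all listed sites and 10.8 and 11.6 expected from the caller's average per base.

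**Figure D2:**
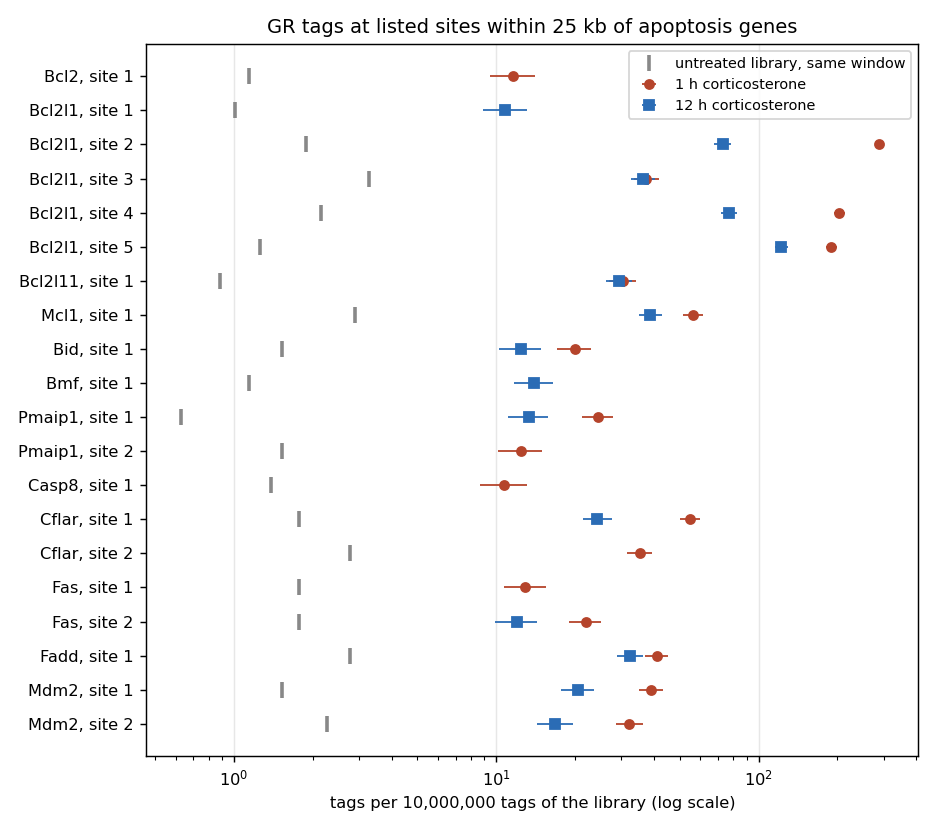
Normalised GR tags (x axis, log scale, tags per 10000000 tags of the library) at each of the 20 sites within 25 kb of an apoptosis gene, numbered by position within a gene. Circles are the 1 h and squares the 12 h library, with exact Poisson 95% counting intervals, and grey ticks are the untreated library in the same window. Bcl2l1 sites 2, 4 and 5 stand apart from the rest at 1 h, and a missing symbol means that the site was not listed at that time.

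Among the anti-apoptotic genes, Bcl2l1 stood apart from all other members. It encodes BCL-XL, which blocks BAX and BAK at the mitochondrial membrane. Its span (chromosome 2, 152758732 to 152833803, minus strand, mm10) held 4 sites listed at both times. At 1 h they held 189.5, 203.5, 37.4 and 287.9 tags, in the order of transcription, at 8.02, 22.2, 35.8 and 42.7 kb from the nearest start site. At 12 h the same sites held 122.1, 77.2, 36.4 and 72.9 tags. The untreated library held 10, 17, 26 and 15 raw tags in the 1 h windows.

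The 4 sites did not move alike between the libraries. The site 42.7 kb from the start (152785649 to 152785931) was rank 13 of the 5638 peaks by tags at 1 h and rank 182 of the 2883 at 12 h. Its log2 ratio of 12 h over 1 h was -1.98 (95% exact binomial counting interval -2.10 to -1.86), or 0.253-fold. At 22.2 kb (152806127 to 152806409) the log2 ratio was -1.40 (-1.52 to -1.27), and at 8.02 kb (152820327 to 152820609) it was -0.63 (-0.74 to -0.53). At 35.8 kb (152792541 to 152792823) it was -0.04 (-0.26 to 0.18), within counting error of no change. The site with the most tags at 1 h thus no longer led at 12 h, when the site nearest to the starts did. At 12 h the 42.7 kb and 22.2 kb sites held 713 and 755 raw tags, too close for their order to be read. At the 42.7 kb site the centres of the 1 h and 12 h windows lay 76 bp apart, against 15 to 25 bp at the other 3 sites. Among shared sites of other members, they lay 72 bp apart at Bid, 50 bp at Fadd and 10 to 29 bp at the rest. The share of tags in the expected strand positions (the caller's focus ratio) at the 42.7 kb site was 0.791 at 1 h and 0.774 at 12 h. That was close to the 0.806 and 0.808 of the 35.8 kb site. It was 0.938 and 0.908 at the 22.2 kb site and 0.892 and 0.901 at the 8.02 kb site.

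Summed over these 4 sites, Bcl2l1 held 718 tags at 1 h and 309 at 12 h. The windows were called separately in each library, and the single sites went from 0.253-fold to 0.973-fold, so no fold is given for the gene. That was 64.1% of all tags at member sites at 1 h, and with another site listed at 12 h alone the share was 59.9% at 12 h. Ranked by summed tags within 25 kb, Bcl2l1 was number 3 of the 21631 protein-coding genes at 1 h and number 5 at 12 h. Only 0.633% of all genes, and 2.66% of the genes in the same group of span length, had 4 or more 1 h peaks within 25 kb. The site of 12 h alone (152741476 to 152741778) lay 17.1 kb beyond the end of the gene and 4.22 kb from Id1, an inhibitor of basic helix-loop-helix factors. It held 10.8 tags at a fold of 6.09 over the local region, just above the minimum of 6, and a gain over 1 h is not shown.

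**Figure D3:**
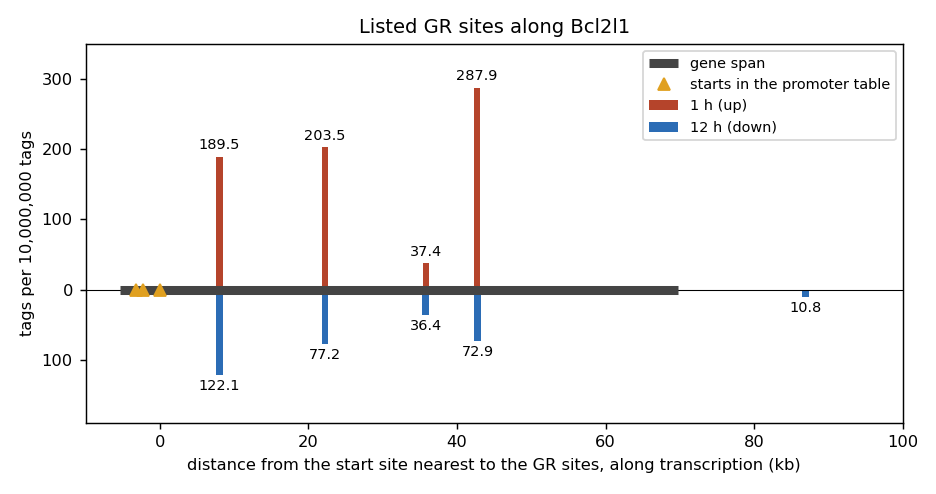
Listed GR sites along Bcl2l1, drawn at their distance from the start site nearest to them (x axis, kb, transcription to the right). Bars give normalised tags at 1 h (up) and 12 h (down), the grey bar is the gene span and triangles are its 3 starts in the RefSeq promoter table. The 1 h bars of 189.5, 203.5 and 287.9 tags became 122.1, 77.2 and 72.9, while the 37.4 bar and its 12 h partner of 36.4 were alike in height.

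Mcl1, which encodes a short-lived survival protein, had 1 site 12.5 kb beyond its end (chromosome 3, 95675496 to 95675778). It held 56.1 tags at 1 h and 38.7 at 12 h, with 23 raw tags in the untreated library, a log2 ratio of -0.54 (-0.73 to -0.34). This site lay nearer to Adamtsl4, at 0.564 kb. Bcl2, the founding member of the family, had 1 weak site in the 1 h list alone, 14.2 kb beyond its end (chromosome 1, 106523846 to 106524128). It held 11.6 tags, with 9 raw tags in the untreated library, and a 12 h peak there would have needed about 7.67 tags. Its local fold at 1 h was 8.08, so it stood near the minimums, and a loss of binding is not shown. Bcl2l2, which encodes the survival protein BCL-W, had its nearest 1 h peak 415 kb away.

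Of the 8 BH3-only genes, Bcl2l11 had the single site with the most tags at both times, while the 2 Pmaip1 sites of 1 h summed to more (36.8). Bcl2l11 encodes BIM, which binds all anti-apoptotic family members, and it held 1 site inside its span, 25.7 kb from the nearest start (chromosome 2, 128153105 to 128153387). The site held 30.4 tags at 1 h and 29.5 at 12 h, with 7 raw tags in the untreated library. The log2 ratio was -0.04 (-0.29 to 0.20), so the libraries did not differ there beyond counting error. Against the untreated library it stood 34.36-fold higher at 1 h and 29.17-fold higher at 12 h.

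Bmf, whose product links the cytoskeleton to BCL2 proteins, was the only gene with a peak at 12 h alone. Its site lay inside the gene, 14.9 kb from the nearest start (chromosome 2, 118529492 to 118529794), and held 13.9 tags, with 9 raw tags in the untreated library. To be listed at 1 h it would have needed about 8.28 tags, and its local fold at 12 h was 7.70. The nearest 1 h peak was 38 kb from the gene, with 33.8 tags. No 1 h value is given for the 12 h window, so a change there was not measured.

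Pmaip1, which encodes NOXA, an inhibitor of MCL1, had a pair of sites outside its span on chromosome 18. The farther one, at 9.35 kb (66449112 to 66449394), held 24.4 tags at 1 h and 13.3 at 12 h, with 5 raw tags in the untreated library, a log2 ratio of -0.88 (-1.20 to -0.56). The nearer one, at 5.16 kb, held 12.4 tags at 1 h alone, at a local fold of 6.10. Bid, which carries the death receptor signal to the mitochondria once caspase 8 has cut it, had 1 site 10.8 kb upstream (chromosome 6, 120927736 to 120928018). The site held 19.9 and 12.4 tags, with 12 raw tags in the untreated library, a log2 ratio of -0.68 (-1.03 to -0.34), and it lay nearer to Mical3, at 3.67 kb. Bad, Bik, Hrk and Bbc3 had no peak within 25 kb. Hrk missed the limit narrowly, with peaks 25.9 kb away of 12.7 tags at 1 h and 16.6 at 12 h. Within 100 kb Bik had a 1 h peak at 65.3 kb (11.8 tags) and Bbc3, the gene of the p53 target PUMA, at 80.0 kb (13.5 tags).

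Among the caspases, only Casp8, the initiator caspase of the death receptor route, had a peak. It was listed at 1 h alone, 12.5 kb beyond the gene (chromosome 1, 58859848 to 58860130) and inside the gene Gm28802. It held 10.7 tags, with 11 raw tags in the untreated library, at a fold of 7.71 over that library. A 12 h peak there would have needed about 8.33 tags, so it too stood near the minimums. Casp9, the initiator caspase of the mitochondrial route, had a 1 h peak just outside the limit, at 26.7 kb with 8.39 tags, and Casp2 had one at 58.8 kb with 8.17 tags. Apaf1, the scaffold of the apoptosome, and Casp6, an executioner caspase, had none within 100 kb.

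The death receptor group held sites at Cflar, Fas and Fadd. Cflar encodes c-FLIP, which keeps caspase 8 from being activated at death receptors, and its first site lay inside the gene, 2.51 kb downstream of the start (chromosome 1, 58713864 to 58714146). It was the site closest to a start of its own gene among the 20. It held 54.9 tags at 1 h and 24.3 at 12 h, with 14 raw tags in the untreated library, a log2 ratio of -1.17 (-1.40 to -0.95). The second site, 31.1 kb from the start (58742457 to 58742739), held 35.2 tags at 1 h alone, with 22 raw tags in the untreated library. A 12 h peak there would have needed about 16.7 tags, and its local fold at 1 h was 17.53. It was the strongest member site without a partner at the other time. No 12 h value is given for its window, so a loss of binding was not measured.

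Fadd, the adaptor that joins death receptors to caspase 8, had 1 site 228 bp beyond its end and 4.35 kb from its start (chromosome 7, 144577954 to 144578236). The site held 40.9 tags at 1 h and 32.4 at 12 h, with 22 raw tags in the untreated library. The log2 ratio was -0.33 (-0.55 to -0.11), which became 0.16 when ratios were centred on the median of all shared sites. Fas, a death receptor gene, had a site 0.421 kb beyond its end (chromosome 19, 34328055 to 34328337) with 21.9 and 12.0 tags and 14 raw tags in the untreated library. Its log2 ratio was -0.87 (-1.21 to -0.53), and at 12 h it stood 6.32-fold over the untreated library, close to the minimum. A second Fas site, 5.42 kb upstream (34285090 to 34285372), held 12.9 tags at 1 h alone, at a local fold of 6.65. Tradd and Tnfrsf10b had no peak within 100 kb.

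Mdm2 encodes the ubiquitin ligase that degrades p53, and a pair of sites flanked it on chromosome 10. The upstream site, 7.11 kb from the start (117717726 to 117718008), held 32.2 tags at 1 h and 16.8 at 12 h, with 18 raw tags in the untreated library, a log2 ratio of -0.94 (-1.23 to -0.66). The downstream site, 19 kb beyond the end (117669706 to 117669988) and inside the gene Cpm, held 39.0 and 20.5 tags, with 12 raw tags in the untreated library, a log2 ratio of -0.93 (-1.19 to -0.68). Both thus went to nearly the same fraction of their 1 h level, 0.520 and 0.525. This downstream site was the farthest from its gene of the 20. Trp53 itself had its nearest peak 481 kb away, at both times.

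The IAP genes Birc2, Birc3 and Xiap, whose products block caspases or death receptor signalling, Birc5 (survivin) and Diablo, whose product displaces IAP proteins from caspases, had no peak within 25 kb. Within 100 kb, Birc5 had a 1 h peak at 61.6 kb (8.72 tags) and a 12 h peak at 76.6 kb (10.6 tags), and Birc3 a 1 h peak at 77.2 kb (12.9 tags). The nearest 1 h peak was 113 kb away for Birc2 and for Diablo and 264 kb away for Xiap. For the pore formers it was 101 kb away for Bak1, 213 kb for Bax and 454 kb for Bok.

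Of the 18 member sites listed at 1 h, 13 were listed at 12 h (72.2%), against 43.2% of all 1 h peaks. Of the 15 listed at 12 h, 86.7% were listed at 1 h, against 84.5% of all. The member sites were stronger than the lists at 1 h, with a median of 33.7 tags against 18.3, and at 12 h the medians were 24.3 and 18. The part of this strength in the higher share listed at both times was not tested. The 5 sites of 1 h alone were the second sites of Cflar and Pmaip1, the upstream Fas site and the sites of Bcl2 and Casp8. Except for the Cflar site, they held 10.7 to 12.9 tags, below the median of the list.

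All 13 shared member sites held fewer tags at 12 h than at 1 h, and the counting interval lay below 0 at 11 of them (84.6%). Over all 2436 shared sites the interval lay below 0 at 61.8%, and 77.2% held fewer tags at 12 h. The exceptions among the 13 were Bcl2l11 and the Bcl2l1 site at 35.8 kb, where the interval held 0. The median log2 ratio was -0.87, against -0.49 over all shared sites, and it was also -0.87 without the Bcl2l1 sites, over the 9 sites of the other 8 genes. The 13 sites came from 9 genes and 1 pair of libraries, so they are not independent.

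Because the median of all shared sites itself lay at -0.49, the member sites were also read against it. Relative to that shift 10 of the 13 lay below it and 3 above it, namely Fadd, Bcl2l11 and the Bcl2l1 site at 35.8 kb. The counting intervals of the Mcl1, Bid and Fadd sites held -0.49, so these did not differ from the shift beyond counting error. The shared sites were then split into 10 equal groups by their 1 h tags, 243 or 244 sites in each. The groups that held member sites had median ratios from -0.35, in the group of the Bid site, to -0.85, in the group of the strongest Bcl2l1 sites.

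Taken over the 13 member sites, the median of these group medians was -0.83, close to their own -0.87. The ratio was below the median of its group at 8 sites and above it at 5. The Bcl2l1 site at 42.7 kb was far below, with 10.7% of its group lower still. The Bcl2l1 site at 35.8 kb and the Bcl2l11 site lay far above, with 86.4% and 80.7% of their groups lower. Beside sites of like strength, the member sites were thus on both sides of the median.

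**Figure D4:**
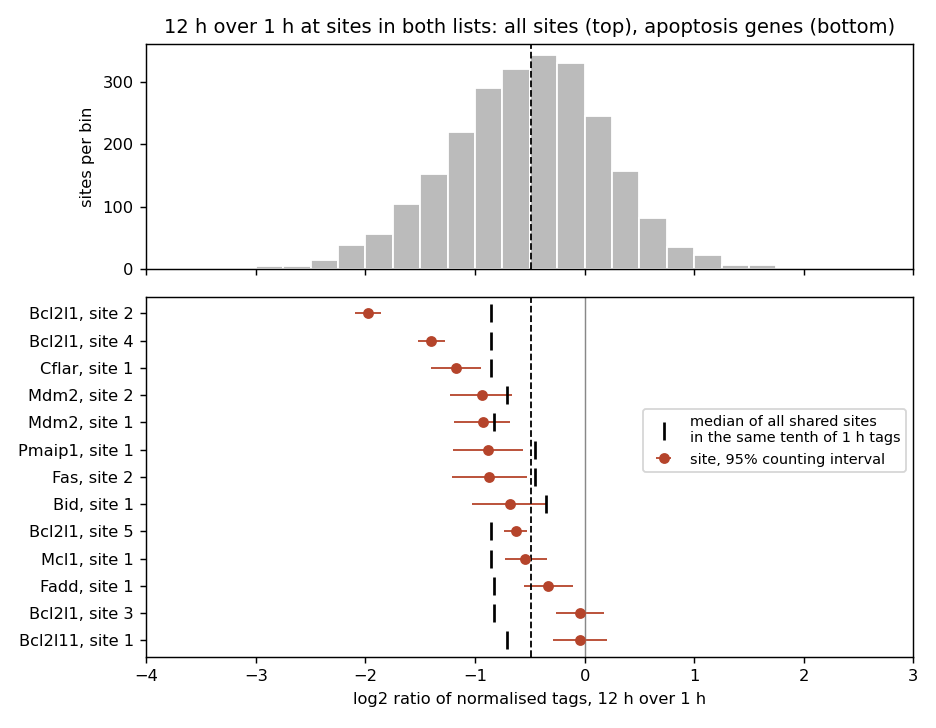
Log2 ratio of normalised tags, 12 h over 1 h (x axis). The upper panel counts all 2436 shared sites per bin of the ratio, and the lower panel gives the 13 sites of apoptosis genes with 95% counting intervals, each beside the median of shared sites in the same 1 of 10 groups of 1 h tags (black tick). The dashed line is the median of all shared sites, -0.49. Each member site lies below 0, and 8 lie left of their tick.

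A further 72 genes of apoptosis and cell death, all matched in RefSeq, were counted in the same way. They had a 1 h peak at 20 (27.8%) and a 12 h peak at 11 (15.3%), against 17.1% and 9.33% of all genes. No count expected from span length was made for these genes. A peak was listed at both times for 10, at 1 h alone for 10 and at 12 h alone for 1, Aifm1, whose product is a mitochondrial flavoprotein (8.59 tags at 7.19 kb, nearer to Elf4). The 6 with the most tags at 1 h were Htra2, Aen, Cdkn1a, Dapk2, Trp63 and Bnip3. Htra2, a mitochondrial protease gene, held 207.2 and 68.5 tags (log2 ratio -1.60, -1.73 to -1.47) where the site lay 23.3 kb off, closer to M1ap. Aen, an exonuclease gene induced by p53, held 163.5 and 44.9 (-1.86, -2.02 to -1.71) where the site lay closer to Isg20.

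Cdkn1a, the gene of the cell cycle inhibitor p21, held 112.4 tags at 1 h and 44.2 at 12 h inside its span (-1.35, -1.51 to -1.18). Dapk2, a death-associated kinase gene, held 71.0 and 16.4 at the strongest of its 4 sites of 1 h (-2.12, -2.38 to -1.87). Trp63, the gene of the p53 relative p63, held 56.0 and 39.9 at the strongest of its 5 (-0.49, -0.68 to -0.30). Bnip3, a mitophagy receptor gene of the wider BCL2 group, held 50.8 and 34.6 at 9.98 kb (-0.55, -0.76 to -0.35). Dapk2 and Trp63 were the 2 of the 72 genes (2.78%) with 4 or more 1 h peaks, the number that Bcl2l1 also reached. None of these 6 sites held as many tags at 1 h as the leading Bcl2l1 site.

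Each of the 6, picked for their 1 h tags, held fewer tags at 12 h. Over all 11 shared sites of the 72 genes, which belonged to 9 genes, 8 held fewer tags at 12 h and 3 held more. The interval lay below 0 at 8 (72.7%, against 61.8% of all shared sites), held 0 at 2 and lay above 0 at 1. Their median log2 ratio was -1.35, lower than the -0.87 of the member sites, and they were not set beside sites of like strength. The 3 were named after their values were seen. Casp12, a caspase gene linked to stress of the endoplasmic reticulum, had nearly equal values, 34.9 tags at 1 h against 35.4 at 12 h (log2 ratio 0.02, -0.20 to 0.25). The other shared Trp63 sites held 25.6 and 26.1 (0.03, -0.24 to 0.29), and 12.7 and 18.8 (0.57, 0.22 to 0.92). The ratios at shared sites of this gene thus lay on both sides of 0, without a replicate check. Its strongest site, at -0.49, lay at the median of all shared sites.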

How the data were processed

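GR ChIP-seq peak lists of 3 libraries were used (untreated, 1 h and 12 h; 1 library each); the input library was not analysed here. The submitters' processing notes name HOMER, Bowtie2 2.2.6, bcl2fastq 2.17 and the build mm10. Per the file headers, HOMER findPeaks called each library's peaks at a false discovery rate of 0.001, the untreated list against an input and both treated lists against the untreated library. Peak widths were fixed, at 282 bp (1 h) and 302 bp (12 h). The normalised tag count is a signal that the authors scaled to 10000000 tags. Control tags were deposited as tags of the untreated library, with 0.5 in place of 0. The folds are ratios, the score is the caller's, and the focus ratio is a fraction, all deposited by the authors; they served only to describe and filter peaks. The total tag count deposited for the untreated peak is a raw count and was not used in a comparison. Scaled totals of the treated lists were turned back into whole tags (100% of peaks within 0.1 of a tag) for the counting intervals.

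Peaks were assigned to RefSeq gene spans (GRCm38.p6, chromosomes 1 to 19 and X) within 25 kb, and lists were paired by overlap of 1 bp or more. Intervals are exact binomial (Clopper-Pearson) 95% intervals for the 2 tag counts and take in counting error alone, as PCR copies cannot be told from separate molecules. Counts of genes stand beside the share of all protein-coding genes, also in 5 equal groups of span length. The scripts (Python 3.11, pandas 2.3.3, numpy 2.4.6, scipy 1.17.1) were tested on simulated data. Every member with a peak is named with its peaks, the others with their nearest 1 h peak where within 100 kb; values for some farther ones were added after they were seen. Of the 72 further genes the 6 with most tags at 1 h are named, with any at 12 h alone; the shared sites of these genes that held more tags at 12 h were added after they were seen. The members and lists were chosen with earlier results of these data known. The RefSeq tables held no sequence of the peaks themselves, and peak sequences were not used here.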

Additional observations from a re-analysis of the deposited data

How the results depend on the processing

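At 1 h the count of genes with a peak moved most with the distance allowed, and the share of all genes moved too. It was 11 within 25 kb (34.4%, against 17.1% of all genes) and 3 inside the span (9.38%, against 7.63%). It was 7 within 10 kb (21.9%, against 11.8%) and 19 within 100 kb (59.4%, against 37.9%). At 12 h it was 10 within 25 kb (31.2%, against 9.33%) and 8 within 10 kb (25%, against 6.24%). Within 100 kb it was 13 (40.6%, against 22.6%). Inside the span it was 4 (12.5%, against 4.06%). Peaks at 2 or more times each minimum also gave 4 at 12 h (12.5%, against 3.73%). Counting a peak for its nearest gene alone gave 8 genes at both times (25%, against 11.7% of all genes at 1 h and 6.49% at 12 h). The numbers expected from span length were 5.17 and 2.70 with 10 strata, against 5.13 and 2.71 with 5. Pairing by 50% overlap or by centres within 100 bp left 13 shared sites. The median log2 ratio was -0.97 per base of the window, and -0.87 without the Bcl2l1 sites, an alternative chosen after the data were seen. Per base, each of the 13 ratios changed by the same -0.1, set by the window widths alone, and so stayed within its counting interval. Centring on the median of all shared sites (-0.49) raised each of the 13 ratios by the same amount. That amount was larger than the upper arm of each interval, so each ratio came out above its interval by construction. Neither step says anything about single sites. The Mcl1 ratio, for example, went from -0.54 to -0.04. Fadd came out at 0.16, and Bcl2l11 and the Bcl2l1 site at 35.8 kb, whose intervals hold 0, also came out above 0. The other ratios stayed below 0. No paired analysis was possible because each condition has a single library. With 1 library per condition, none could be left out, and depth limits weak sites most: the Casp8 site, the weakest at 1 h, rests on 97 raw tags.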
